A study of Mus musculus with 8 samples.

Results

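Cadherins are calcium-dependent adhesion proteins through which neighbouring cells hold on to each other, and the transcripts of 9 of them, 6 cadherins (Cdh1, Cdh2, Cdh5, Cdh6, Cdh13 and Cdh17) and 3 protocadherins (Pcdh1, Pcdh12 and Pcdh17), were followed in label-retaining and non-label-retaining biliary cells of the mouse liver. The 9 genes were taken by name from the 46603 genes of the count table, with no threshold on their values. Each of the 9 had reads in at least 1 library, and 7 had enough reads to pass the expression filter of the test used across all genes. The other two, Pcdh12 and Cdh17, are described by their counts.

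RNA was sequenced from 8 libraries, 2 from each of 4 mice named JV602, JV621, JV624 and JV6314. All mice carried 1 copy each of R26rtTA, a doxycycline-dependent activator placed in a locus that is active in most cell types, and of H2B-EGFP, a green histone that the activator switches on, and had a mixed C57BL/6 and CBA background. All received doxycycline from birth to postnatal day 5, the pups through their nursing mothers, and their livers were dissociated at 8 weeks of age, so that cells that had divided little since then were still green. The LLRC libraries hold the sorted cells positive for EGFP and EpCAM and negative for CD45, and the non-LRC libraries hold EGFP-negative cells of the same EpCAM and CD45 gate. The EGFP-negative cells carried the same transgenes and had received the same doxycycline, and EGFP is also made without doxycycline in hematopoietic cells of this line, which the CD45 gate was meant to remove.

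A classical cadherin binds the same cadherin on the next cell through its outer repeats and reaches the actin cytoskeleton through beta-catenin, p120-catenin and alpha-catenin inside the cell. Which cadherin a cell makes goes with its tissue. E-cadherin (Cdh1) holds epithelia together, bile ducts and hepatocytes included, and N-cadherin (Cdh2) is also found in liver epithelium, while VE-cadherin (Cdh5) marks the junctions of endothelial cells. T-cadherin (Cdh13) has no intracellular part and is held in the membrane by a lipid anchor. Protocadherins share the outer repeats but not the catenin-binding tail.

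The 4 LLRC libraries held 7860021 to 9851819 counts and the 4 non-LRC libraries 4670132 to 8056103, so that 3 counts corresponded to between 0.291 and 0.626 CPM (read counts scaled to a common library size by TMM). Correlations of log2 CPM between libraries were 0.884 to 0.919 among LLRC libraries and 0.627 to 0.795 among non-LRC libraries. The labelled cell type was checked against its markers. Of the 13 cholangiocyte markers, Spp1 alone took 97.1 to 98.8% of the summed level, and the other 12 together stood at 2507 to 2940 CPM in LLRC libraries and 1922 to 3084 CPM in non-LRC libraries. The 13 log2 fold changes (LLRC over non-LRC) ran from -0.49 (Tspan8) to 1.44 (Cftr), Krt19 was at -0.20, and 0 passed the adjusted threshold. The 19 endothelial markers, Cdh5 not among them, together stood at 43.2 to 69.7 CPM in LLRC libraries and at 256 to 948 CPM in non-LRC libraries. Xist was read 120 times in the LLRC library of JV621 and not at all in the other 7 libraries, the other library labelled JV621 included. Whether the LLRC library of JV621 holds cells of another animal or sex was not tested, and the member values that moved most with JV621 are also given without it. Where 4 values of a population are listed, they follow the order JV602, JV621, JV624, JV6314. In sorted bulk samples of this kind, fewer cells of a type and less RNA per cell cannot be told apart.

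**Figure D1:**
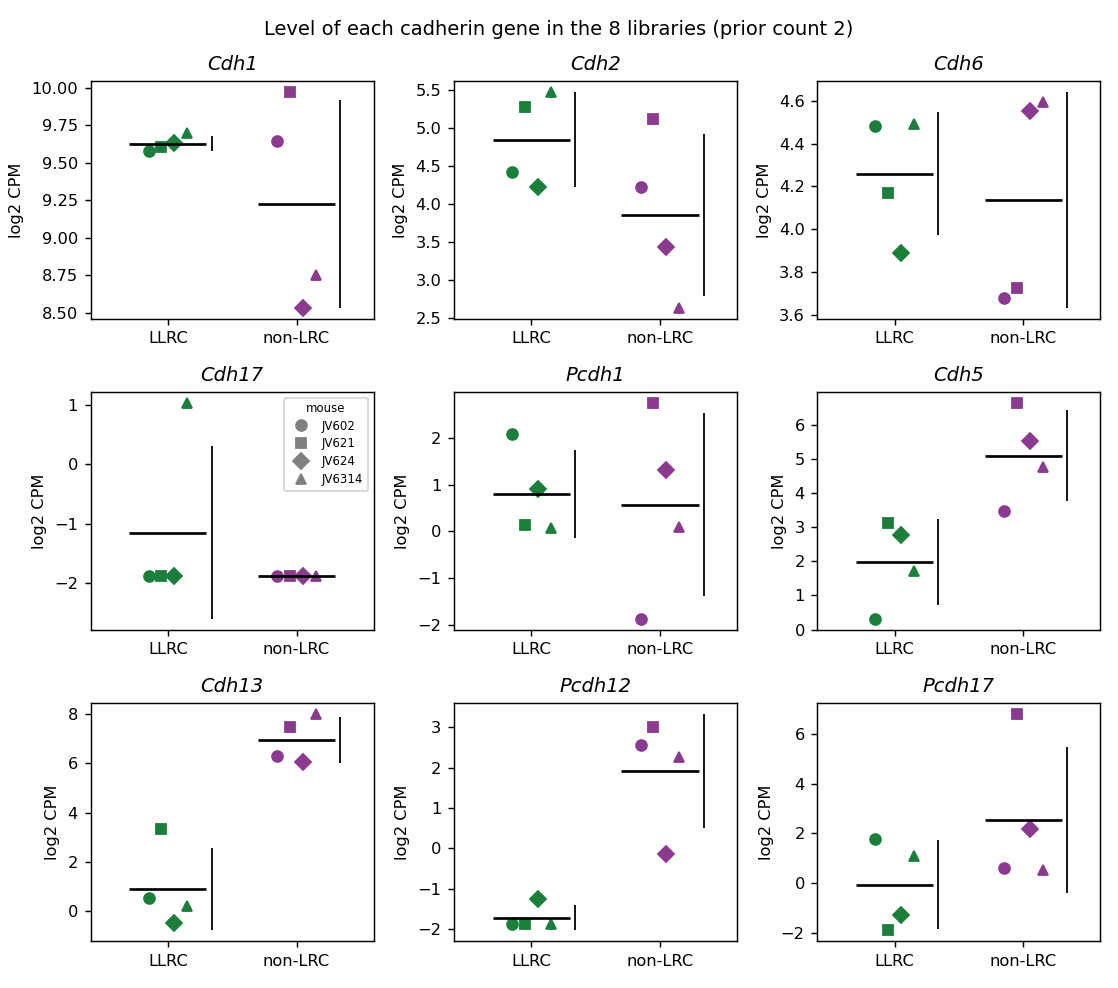
Level of each of the 9 genes in the 8 libraries as log2 CPM with a prior count of 2, with a separate y axis for each gene. Each point is a library (green, LLRC; purple, non-LRC; the shape gives the mouse), horizontal lines are means and vertical lines 1 SD. The groups are apart for Cdh5, Cdh13 and Pcdh12 and overlap for the other 6 genes.

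E-cadherin dominated in both populations. Cdh1 (chromosome 8, 106603351 to 106670246 of GRCm38, plus strand) stood at 765, 777, 793 and 830 CPM in the LLRC libraries, and at 800.1, 1005, 371 and 431 CPM in their non-LRC libraries. The 4 LLRC values lay close together, whereas the non-LRC values of JV624 and JV6314 were below and those of JV602 and JV621 above all or most of them. The level was 791 ± 28.0 CPM in LLRCs against 652 ± 303 CPM in non-LRC cells (mean ± SD, n = 4). Expressed as LLRC over non-LRC, the log2 fold change was 0.28 (standard error, SE, 0.34, 95% interval -0.49 to 1.05, edgeR quasi-likelihood adjusted p = 0.9999). It was higher in LLRCs in 2 mice and lower in 2 (exact two-sided permutation p = 0.4).

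The spread of Cdh1 differed more than its mean. Its coefficient of variation was 3.54% over the LLRC libraries and 46.4% over the non-LRC libraries. Among the 1275 genes with a mean of at least 100 CPM in both groups, the medians were 22.1% and 40.0%, and 81.4% of these genes varied more in non-LRC libraries. Of the 1275 genes, 5 (0.392%), Cdh1 among them, varied as little over the LLRC libraries as Cdh1 did. These coefficients were computed on TMM-scaled CPM only, and whether they hold under another scaling was not tested. Set against Epcam, the transcript of the protein used for the sort, there were 131, 119, 144 and 152 Cdh1 reads per 100 Epcam reads in the LLRC libraries and 151, 131, 85.7 and 90.2 in the non-LRC libraries. With 721.6 CPM over all 8 libraries, Cdh1 ranked 125 of the 13605 genes tested on a scale not divided by length.

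Per length of exon, N-cadherin had a small part of the level of E-cadherin. Cdh2 (chromosome 18, 16588877 to 16809246, minus strand) stood at 21.1, 38.7, 18.4 and 44.4 CPM in the LLRC libraries and at 18.4, 34.7, 10.6 and 5.92 CPM in their non-LRC libraries. The groups overlapped, yet within each of the 4 mice the LLRC library had the higher value, by 0.20, 0.16, 0.78 and 2.85 on the log2 scale. Of all genes tested, 7.74% were higher in LLRCs in every mouse. Across all 8 libraries the log2 fold change of Cdh2 was 0.82 (SE 0.57, 95% interval -0.48 to 2.11, adjusted p = 0.9999 in the same edgeR test). The exact permutation p was 0.143, and an exact sign-flip test over the 4 mice gave p = 0.125, the smallest that 4 mice allow. The difference was largest in JV6314, and without both libraries of that mouse the log2 fold change was 0.30, while without the non-LRC library of JV621 it was 1.40.

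K-cadherin (Cdh6), a classical cadherin known from kidney epithelium, overlapped N-cadherin in level per length of exon and did not differ between the populations beyond its spread. Cdh6 (chromosome 15, 13028701 to 13173675, minus strand) had 22.1, 17.7, 14.6 and 22.2 CPM in the LLRC libraries and 12.5, 12.95, 23.2 and 23.9 CPM in the non-LRC libraries. In JV602 and JV621 the LLRC library had more, and in JV624 and JV6314 the non-LRC library had more. The log2 fold change was 0.08 (SE 0.38, 95% interval -0.77 to 0.93, adjusted p = 0.9999 in the edgeR test, exact permutation p = 0.686), an interval that leaves room for less than a 2-fold change in either direction. The sign turned to -0.03 when library sizes were left unscaled.

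LI-cadherin (Cdh17), an adhesion protein of intestinal epithelium, was read in a single library. Cdh17 (chromosome 4, 11758147 to 11817895, plus strand) had 16 counts in the LLRC library of JV6314 (1.78 CPM, exact Poisson interval 9.15 to 26.0 counts, counting error only) and 0 in the other 7 libraries. A count of 0 allows up to 3 counts, or up to 0.626 CPM in the library with the highest floor. The exact permutation test over the 8 libraries gave p = 1.

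Protocadherin 1 (Pcdh1), known from airway epithelium, was close to the limit of detection. Pcdh1 (chromosome 18, 38185914 to 38212053, minus strand) had 41, 7, 11 and 7 reads in the LLRC libraries and 0, 31, 14 and 4 reads in the non-LRC libraries, that is 3.97, 0.828, 1.62 and 0.777 CPM and 0, 6.47, 2.21 and 0.789 CPM. The highest LLRC value and the only 0 came from the same mouse, JV602. Its log2 fold change was -0.37 with an SE of 1.17 (adjusted p = 0.9999 in the edgeR test, exact permutation p = 0.83). It turned to 0.87 without the non-LRC library of JV621, and the LLRC mean of 1.80 CPM was 1.07 CPM without the library of JV602.

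The cadherins of vessels formed the other pattern. VE-cadherin (Cdh5), T-cadherin (Cdh13) and protocadherin 12 (Pcdh12), a protocadherin of endothelial junctions, had all LLRC libraries below all non-LRC libraries, and the difference had the same direction in all 4 mice. These 3 are among the genes that the study picked from these same libraries as lower in LLRCs, so their direction is not independent evidence. Of all genes tested, 1.91% had all LLRC libraries below all non-LRC libraries, 5.53% were lower in all mice and 4.06% reached an exact permutation p below 0.05.

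Cdh5 (chromosome 8, 104101625 to 104144511, plus strand) stood at 0.969, 8.40, 6.62 and 3.00 CPM in the LLRC libraries and at 10.8, 99.2, 45.9 and 26.6 CPM in their non-LRC libraries. JV602 was lowest and JV621 highest in both populations, so the difference within a mouse was nearly the same in all 4, at -3.15, -3.52, -2.75 and -3.04 on the log2 scale (mean -3.12, SD 0.32). The level was 4.75 ± 3.37 CPM in LLRCs against 45.6 ± 38.5 CPM in non-LRC cells (mean ± SD, n = 4). The log2 fold change was -3.27 (SE 0.84, 95% interval -5.16 to -1.37, edgeR quasi-likelihood adjusted p = 0.359), which did not pass the threshold of 0.05. The exact permutation p was 0.029, the smallest that 4 libraries against 4 allow. Without the non-LRC library of JV621 the non-LRC mean was 27.8 CPM and the log2 fold change -2.54.

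Cdh13 (chromosome 8, 118283733 to 119324921, plus strand) showed the widest gap of the 7 genes tested. It stood at 1.16, 9.82, 0.441 and 0.888 CPM in the LLRC libraries and at 78.2, 181, 66.0 and 257.5 CPM in the non-LRC libraries. In counts, the LLRC libraries held 12, 83, 3 and 8 reads and the non-LRC libraries 624, 865, 418 and 1305. The library of JV621 held 83 of the 106 LLRC reads and lay well above the other LLRC libraries, and without it the LLRC mean of 3.08 ± 4.50 CPM (SD, n = 4) was 0.831 CPM, against 145.6 ± 90.6 CPM (SD, n = 4) in non-LRC cells. The log2 fold change was -5.55 (SE 1.06, 95% interval -7.95 to -3.16, adjusted p = 0.13 in the edgeR test, exact permutation p = 0.029), and -7.39 without the LLRC library of JV621. The gene ranked 54 by p among the 13605 genes, and Cdh5 ranked 135.

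Pcdh12 (chromosome 18, 38267089 to 38284402, minus strand) was almost unread in LLRCs. It had 0, 0, 1 and 0 reads in the LLRC libraries and 45, 37, 4 and 23 reads in their non-LRC libraries, that is 5.64, 7.73, 0.631 and 4.54 CPM. The lowest non-LRC value and the single LLRC read both came from JV624. Summed over the libraries and scaled for depth, non-LRC cells had 156 times the LLRC count (109 reads against 1, 95% exact interval 27.4 to 6213, counting error only). The exact permutation p was 0.029.

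Protocadherin 17 (Pcdh17), a protocadherin of neurons that is also read in endothelium, rested on 1 library. Pcdh17 (chromosome 14, 84443563 to 84539002, plus strand) had 33, 0, 1 and 17 reads in the LLRC libraries and 10, 526, 27 and 6 reads in the non-LRC libraries, that is 3.199, 0, 0.147 and 1.89 CPM and 1.25, 109.8, 4.26 and 1.18 CPM. The LLRC library had more in JV602 and JV6314 and less in JV621 and JV624. Over the groups its log2 fold change was -4.43 (SE 1.79, 95% interval -8.47 to -0.38, adjusted p = 0.893 in the edgeR test, exact permutation p = 0.229). Without the non-LRC library of JV621 it was -0.74, and the non-LRC mean of 29.1 CPM was 2.23 CPM.

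**Figure D2:**
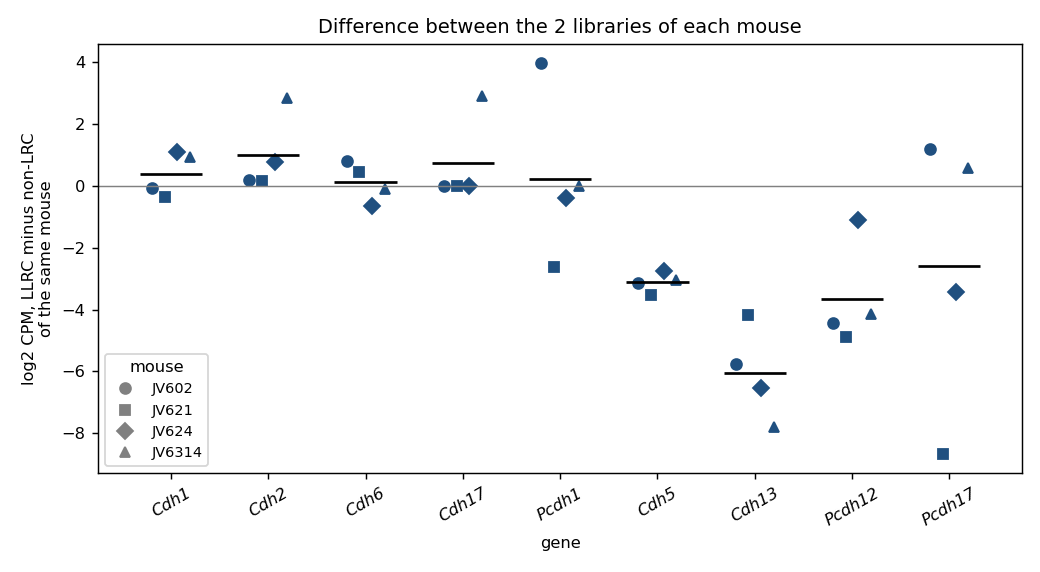
Difference in log2 CPM (prior count 2) between the LLRC and the non-LRC library of the same mouse, for each of the 9 genes. Each point is a mouse and each horizontal line the mean of the 4 mice. All 4 points lie below 0 for Cdh5, Cdh13 and Pcdh12, the points of Cdh5 span only -3.52 to -2.75, and those of Pcdh17 run from -8.66 to 1.19.

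Of the 7 members tested, 0 had an adjusted p below 0.05 in edgeR's quasi-likelihood test, as had 0% of the 13605 genes tested. At an unadjusted p below 0.05, 3 of the 7 members tested (Cdh5, Cdh13 and Pcdh17) were lower in LLRCs, against 3.56% of all genes tested (5.16% in either direction). Pcdh17 was no longer among them with the replicate block (log2 fold change -2.13), with limma (-2.72), without the non-LRC library of JV621 (-0.74), without the LLRC library of JV621 (-4.02), JV624 (-4.07) or JV6314 (-4.63), or without both libraries of JV621 (-0.33), JV624 (-4.44) or JV6314 (-5.03). The call depended on the test. DESeq2's Wald test, which called 1.62% of all genes and 1.26% as lower in LLRCs, called Cdh5 and Cdh13. The edgeR exact test without an expression filter called Cdh5, Cdh13 and Pcdh12, with 0.46% of 27591 genes called in either direction and 0.348% as lower, and a newer form of the quasi-likelihood dispersion called Cdh13, with 0.529% of all genes called and 0.448% as lower. Cdh1, Cdh2, Cdh6 and Pcdh1 were called by none of these 4 tests. Pcdh17 was called by none of the 3 edgeR tests and DESeq2 gave it no p, and Cdh17, tested only without the filter, was not called.

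**Figure D3:**
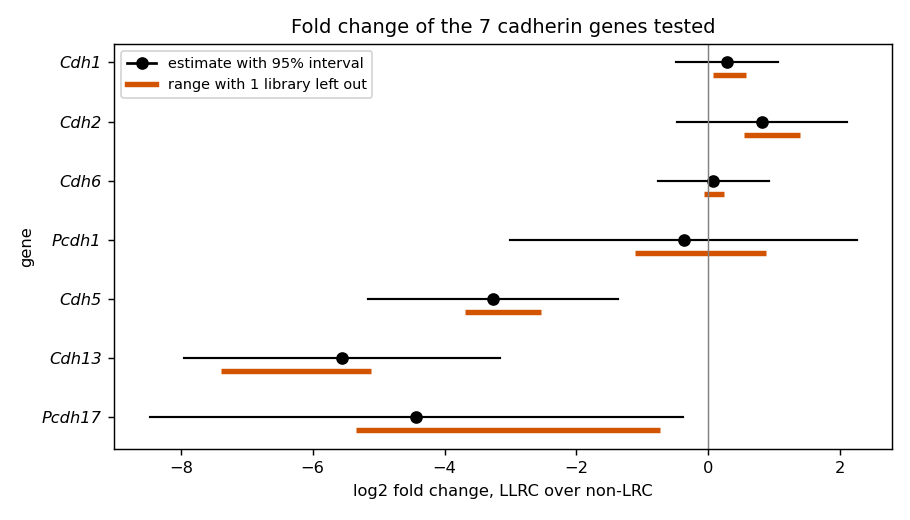
Log2 fold change (LLRC over non-LRC, x axis) of the 7 genes that passed the expression filter. Points are estimates from edgeR's quasi-likelihood fit, black lines their 95% intervals and orange bars the range of the estimate when each library is left out in turn. The bars of Cdh5 (-3.69 to -2.54) and Cdh13 (-7.39 to -5.12) stay far from 0, and that of Pcdh17 reaches -0.74. The bars of Pcdh1 and Cdh6 (-0.069 to 0.245) cross 0.

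Per kilobase of exon, a scale on which genes of different length can be set side by side, the order of the 9 genes differed between the populations. In LLRCs the mean levels in CPM per kb were 173 for Cdh1, 3.80 for Cdh2, 2.12 for Cdh6, 1.13 for Cdh5, 0.274 for Cdh13 and 0.205 for Pcdh1, and the remaining 3 were at or below 0.101. In this order only Cdh1 was apart from its neighbour, and every other gene overlapped the next in range. In non-LRC cells the order was Cdh1 at 142.5, Cdh13 at 12.96, Cdh5 at 10.9, Pcdh17 at 2.24, Cdh2 at 2.16 and Cdh6 at 2.01 CPM per kb, followed by Pcdh12 at 0.765, Pcdh1 at 0.269 and Cdh17 at 0. Here Cdh1 and Cdh13, and Cdh6 and Pcdh12, did not overlap, and the other neighbours did. Without JV621, Pcdh17 stood at 0.172 CPM per kb in non-LRC cells, below Pcdh12 at 0.595, and Cdh13 at 0.0740 CPM per kb in LLRCs, below Pcdh1, Pcdh17 and Cdh17.

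Cdh1 made up 96.5, 94.6, 96.8 and 95.1% of the summed level per kb of the 9 genes in the LLRC libraries. Its share in non-LRC libraries was 92.5, 79.7, 79.1 and 73.7%. Cdh5, Cdh13, Pcdh12 and Pcdh17 together took 0.335, 1.598, 0.921 and 0.491% in LLRC libraries and 5.58, 17.9, 16.8 and 23.6% in non-LRC libraries, with no overlap between the groups. In the non-LRC libraries most of this was Cdh5 and Cdh13, which the study picked from these same libraries as lower in LLRCs. The share of Pcdh17 by itself overlapped between the groups. All shares are parts of the same sum, so this result and the share of Cdh1 are not independent.

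**Figure D4:**
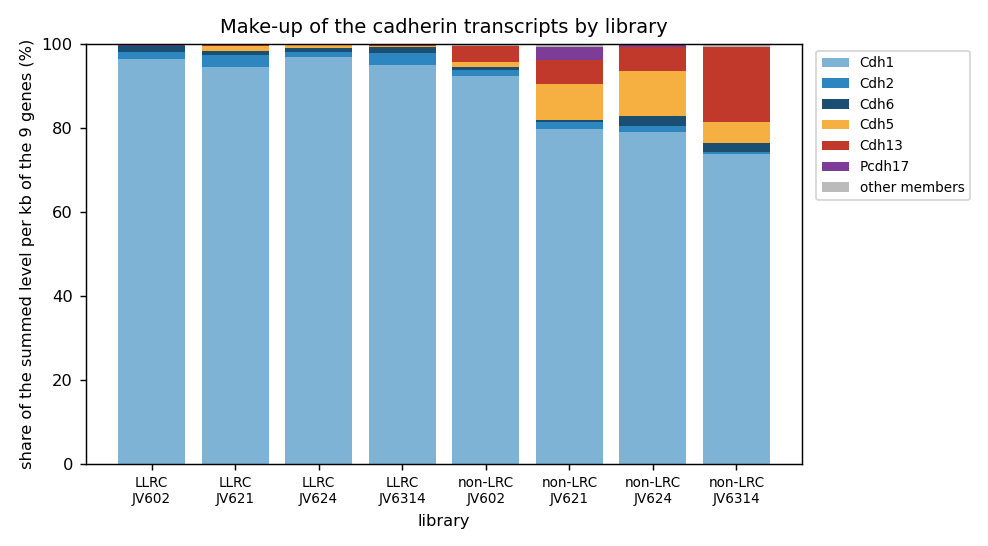
Share of each gene in the summed level per kb of exon of the 9 cadherin genes (y axis, percent) in each library (x axis). Colours give the gene, and Cdh17, Pcdh1 and Pcdh12 are drawn together as other members. Cdh1 fills at least 94.6% of every LLRC bar and at most 92.5% of every non-LRC bar, and most of the remainder in the non-LRC bars is Cdh13 and Cdh5.

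Markers of endothelial cells moved with Cdh5, Cdh13 and Pcdh12. Of the 19 listed, which include genes that the study picked from these libraries, 16 were tested, all 16 had a lower estimate in LLRCs, 15 had an unadjusted p below 0.05, 0 an adjusted p below 0.05, and 12 had all LLRC libraries below all non-LRC libraries. Their median log2 fold change was -3.71, against -0.02 over all genes tested. Between 15 and 19 of the 19 markers were read in each LLRC library, with Lyve1, Sox17 and Tie1 at 0 in JV602, Erg and Sox18 at 0 in JV621, none at 0 in JV624, and Erg, Robo4, Sox17 and Sox18 at 0 in JV6314. In the non-LRC libraries 17 to 19 were read, with Lyve1 and Tie1 at 0 in JV621. The summed levels in LLRC libraries were 43.2, 69.7, 49.6 and 47.1 CPM and in non-LRC libraries 256, 948, 576 and 795 CPM. Their part in the results for Cdh5, Cdh13 and Pcdh12 was not tested. The summed level of these markers was lower in LLRCs in all 4 mice. Pcdh17 was lower in LLRCs in JV621 and JV624 and higher in JV602 and JV6314.

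Per 100 reads of the 19 endothelial markers, the groups overlapped for Cdh5, with 2.24, 12.1, 13.4 and 6.37 Cdh5 reads in the LLRC libraries and 4.21, 10.5, 7.98 and 3.35 in the non-LRC libraries. Cdh13 had 2.69, 14.1, 0.890 and 1.89 reads on this scale in LLRC libraries and 30.6, 19.1, 11.5 and 32.4 in non-LRC libraries. Only the LLRC library of JV621 reached into the non-LRC range for Cdh13. Pcdh12 had 0, 0, 0.297 and 0 reads in LLRC libraries and 2.20, 0.815, 0.110 and 0.571 in non-LRC libraries, an overlap made by the 1 LLRC read of JV624. Pcdh17 followed neither order, at 7.40, 0, 0.297 and 4.01 reads in LLRC libraries and 0.490, 11.6, 0.740 and 0.149 in non-LRC libraries.

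**Figure D5:**
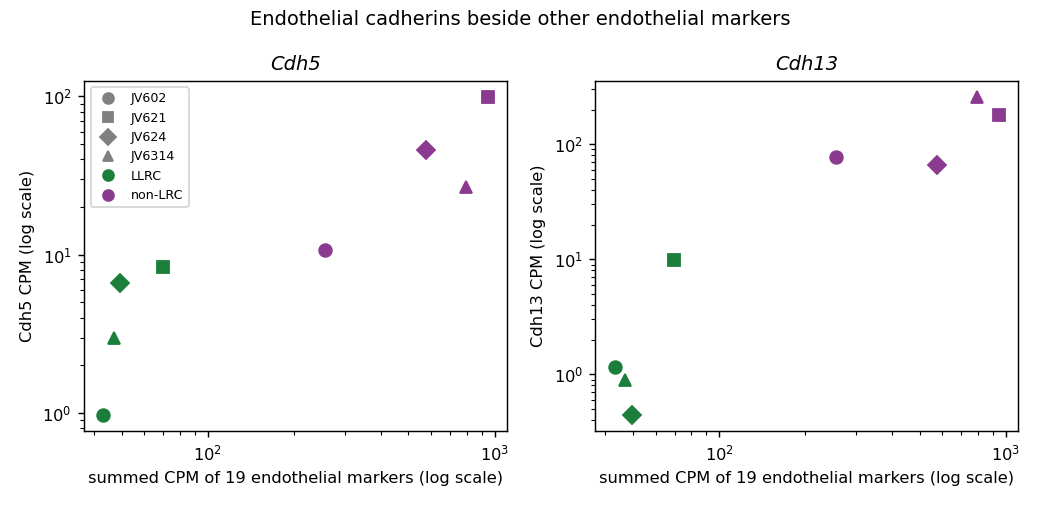
CPM of Cdh5 (left) and Cdh13 (right) on a log y axis against the summed CPM of 19 endothelial markers on a log x axis, 1 point for each of the 8 libraries (green, LLRC; purple, non-LRC; the shape gives the mouse). The LLRC libraries lie at 43.2 to 69.7 CPM of the markers and the non-LRC libraries at 256 to 948 CPM. The LLRC library of JV621 has the highest Cdh5 and Cdh13 of its group.

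Markers of other cell types that the gate could hold were looked at gene by gene as well, since single genes carried most of several sums. For stellate cells and fibroblasts the summed level overlapped between the groups, at 2474 to 9950 and 3520 to 9210 CPM, with Rgs5 as 51.9 to 92.9% of it. Of the 8 markers tested, 6 had a lower estimate in LLRCs, 2 of them at an unadjusted p below 0.05, and the median log2 fold change was -2.15 (-1.47 with the replicate block). Lrat had all LLRC libraries below all non-LRC libraries, with a log2 fold change of -2.98 (SE 0.49, adjusted p = 0.104, edgeR). Without Rgs5 the other 11 stood at 277 to 909 CPM in LLRC libraries and 704 to 2928 CPM in non-LRC libraries.

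For hepatocytes the summed level was 2806 to 3359 CPM in LLRC libraries and 2113 to 6132 CPM in non-LRC libraries, with Alb (log2 fold change 0.01) as 45.2 to 77.6% of it. Of the 10 markers, 9 had a lower estimate in LLRCs, 3 of them at an unadjusted p below 0.05, with a median log2 fold change of -1.28 (-0.84 with the replicate block). Of the 5 mesothelial markers all 5 had a lower estimate, 1 at an unadjusted p below 0.05, with a median of -1.31 (-0.16 with the replicate block, where 4 of 5 were lower) and sums of 289 to 506 and 275 to 929 CPM. Summed leukocyte markers, 60.4 to 98.1% of them Csf1r, stood at 12.1 to 29.95 and 18.8 to 33.6 CPM. Ptprc, which encodes the CD45 of the sort, had 5 to 59 counts in LLRC libraries and 0 to 7 in non-LRC libraries, a log2 fold change of 3.27 (SE 1.42, adjusted p = 0.957, edgeR). Adgre1, Clec4f, C1qa and Cd52 had 0 counts in the LLRC libraries and up to 39, 12, 8 and 10 in a non-LRC library, Lyz2 had 0 to 2 against 3 to 24, and Cd79a and Cd3e were not read. Pancreatic acinar markers reached 891 CPM in the non-LRC library of JV6314 and at most 0.388 CPM in LLRC libraries, and those of Schwann cells and neurons stood at 2.35 to 11.7 CPM in LLRC libraries and 0.418 to 3.13 CPM in non-LRC libraries. In these lists 0 genes passed the adjusted threshold, and their part in the results for the members was not tested. No Cdh1 or Cdh13 read can be assigned to 1 of these cell types from bulk counts.

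The other genes of the cadherin family were read from lists of names. Of 16 further classical and related cadherins, 13 had reads and 2 were tested, and neither passed the adjusted threshold. Cdh11, a cadherin of mesenchymal cells, stood at 2.18 ± 0.579 CPM in LLRCs against 12.3 ± 13.5 CPM in non-LRC cells (mean ± SD, n = 4), a log2 fold change of -2.48 (SE 0.85, adjusted p = 0.733, edgeR). P-cadherin (Cdh3), which had the highest mean CPM of them over all 8 libraries, had a log2 fold change of -0.68 (SE 0.58, adjusted p = 0.9999, edgeR). Of 9 further non-clustered protocadherins all had reads and only Pcdh7 was tested, at 0.881 ± 0.931 and 6.97 ± 8.06 CPM (SD, n = 4).

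Clustered protocadherins, which give neurons their surface identity, were thinly read. Of 57 names, 46 had reads and 7 passed the filter, 6 of the beta cluster and Pcdhga7, and 0 of the 7 had an unadjusted p below 0.05. Their median log2 fold change was 1.05, and the estimate was positive for 7 of 7 in this fit, for 6 of 7 with limma or the newer dispersion and for 5 of 7 with unscaled library sizes. With the replicate block the median was 2.31, and with thinned counts it was 0.61 over the 6 genes left. A gene read mainly in 1 population can pass or miss the filter by that alone. Of the 39 read but not tested, 24 had the higher mean in LLRCs and 15 the lower. Pcdhb20, the highest of the 7 in mean CPM over all 8 libraries, stood at 13.5 ± 11.2 CPM in LLRCs against 11.1 ± 16.6 CPM in non-LRC cells (mean ± SD, n = 4). Pcdhb7 had the lowest p of the 7 and a log2 fold change of 1.98 (SE 1.13, adjusted p = 0.9999, edgeR). Genes of these clusters are near copies, and those of the alpha and gamma clusters share exons, so their counts are uncertain.

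Desmosomal cadherins, which anchor intermediate filaments, and the large cadherins of the Fat, Dachsous, Celsr and related families gave 11 tested genes of 25. Their median log2 fold change was 0.27 (0.71 with the replicate block), 9 estimates were positive and 2 negative, and 0 passed the adjusted threshold. Desmoglein 2 (Dsg2) had the highest CPM of the list, at 1020 ± 140.6 CPM in LLRCs against 665 ± 275 CPM in non-LRC cells (mean ± SD, n = 4), and its log2 fold change was 0.62 (SE 0.33, adjusted p = 0.9999, edgeR). Desmoglein 1 beta (Dsg1b) had 28 to 47 counts in LLRC libraries and 0 to 13 in non-LRC libraries, a log2 fold change of 2.36 (SE 0.96, adjusted p = 0.893, edgeR), and all LLRC libraries were above all non-LRC libraries, as was so for 2.15% of all genes tested. Desmocollin 2 (Dsc2), which pairs with desmogleins in desmosomes, at 432 ± 79.2 CPM in LLRCs against 153 ± 137 CPM in non-LRC cells, showed the same separation, with 23 to 2631 reads in the non-LRC libraries. The log2 fold change of Dsc2 was 1.49 (SE 0.86, adjusted p = 0.9999, edgeR). Fat4 stood at 1.55 ± 0.834 and 11.3 ± 9.76 CPM (log2 fold change -2.84, SE 1.22, adjusted p = 0.951, edgeR).

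The catenins that carry the cadherin tail to actin showed no difference past the test. Of 15 catenins and other cytoplasmic partners 14 were tested, 0 had an unadjusted p below 0.05, and their median log2 fold change was -0.12, with 9 of 14 estimates lower in LLRCs. The direction of the list turned with the replicate block (median 0.08) and with limma (0.18), each with 10 of 14 higher. Alpha-catenin (Ctnna1) had a log2 fold change of 0.05 (SE 0.27) and beta-catenin (Ctnnb1), the highest in CPM at 632 ± 96.4 CPM in LLRCs against 672 ± 445 CPM in non-LRC cells (mean ± SD, n = 4), one of -0.09 (SE 0.43). p120-catenin (Ctnnd1) had -0.15 (SE 0.44), plakoglobin (Jup), which serves adherens junctions and desmosomes, -0.27 (SE 0.81) and Arvcf, a relative of p120-catenin, -0.83 (SE 0.55). The adjusted p of each of these 5 was 0.9999 in the edgeR test.

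Enzymes and other proteins that process cadherins or set their turnover gave 8 tested genes of 8, with a median log2 fold change of -0.34 (-0.15 with the replicate block). Ptprb, the endothelial phosphatase that associates with VE-cadherin, stood at 16.8 ± 11.5 CPM in LLRCs against 229 ± 177 CPM in non-LRC cells (mean ± SD, n = 4), with all LLRC libraries below all non-LRC libraries. Its log2 fold change was -3.76 (SE 0.75, edgeR quasi-likelihood adjusted p = 0.144), and it was the only gene of the family and partner lists that DESeq2 or the edgeR exact test called. Adam10, the protease that sheds E-cadherin and N-cadherin, had the highest CPM of the 8, with a log2 fold change of -0.19 (SE 0.50, adjusted p = 0.9999, edgeR).

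The genes whose profile over the 8 libraries lay closest to each member were found by the root mean square distance of log2 CPM centred on each gene's mean, as a description. Nearest to Cdh5 were Eng, at a distance of 0.495, Ptprb, at 0.522, and Ccdc80, at 0.560. Nearest to Cdh13 were Entpd1, at 0.786, Ggta1, at 0.794, and Fabp4, at 0.852. Each of these 6 had the lower mean in LLRCs, as Eng did with 5.74 CPM against 67.7 CPM. This follows from the way they were chosen and is no separate result. Cdh5 and Cdh13 were 1.98 apart, and neither was among the nearest genes named for the other.

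The epithelial members Cdh1, Cdh6 and Cdh2, whose own values varied less over the libraries, had closer neighbours than Cdh5 and Cdh13. Nearest to Cdh1 were Aktip, Pdgfd and Sel1l, at distances of 0.131 to 0.143, and nearest to Cdh6 were Nt5c, Gm3362 and Gm5312, at 0.154 to 0.156. Nearest to Cdh2 were Zfp40, Msl2 and Vamp7-ps, at 0.315 to 0.340. Cdh1 and Cdh2 were 0.581 apart, closer to each other than any other pair of the 7 members tested. Nearest to Pcdh1 were Bach1, Pygo2 and Sytl1, at 0.562 to 0.599, and nearest to Pcdh17 were 9630013D21Rik, Slc23a1 and Pear1, at 1.00 to 1.31.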

How the data were processed

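Cells positive or negative for EGFP were sorted from each of 4 mice, and RNA was isolated with a kit for small samples. Per the labels and the study's methods, the authors deposited raw counts per gene, made with HTSeq (union mode, strand ignored) from exon reads under the Ensembl annotation of GRCm38.p4. The aligner is not given in the sources used here. A second deposited table holds the authors' own edgeR 3.2.4 comparison (log2 fold changes, abundances, p-values and adjusted p-values) and was not used.

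Symbols, coordinates and exon lengths came from GENCODE M21 for 46005 of the 46603 identifiers. After filterByExpr, 13605 genes were kept, and TMM gave the scaling factors. The counts were tested with the quasi-likelihood test of edgeR 4.0.16 (R 4.3.3), with no term but the group, and adjusted by Benjamini-Hochberg at a threshold of 0.05. Plotted log2 CPM used a prior count of 2. The exact permutation test compared mean log2 CPM, 4 libraries against 4. DESeq2 1.42.0, limma 3.58.1, other scalings and filters, thinned counts, the mouse as a block and libraries or mice left out served as alternatives. The fits were also run on simulated data, and the outcome is not given here.

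The labels name the same mouse for both libraries of a pair, and the differences within a mouse rest on these labels. Whether both libraries labelled JV621 come from the same animal was not tested. The fold changes, SEs and adjusted p-values in the text come from the fit without the mouse. Between the libraries of a pair, the deviations from the group means correlated at 0.096 in JV602, 0.074 in JV621, 0.003 in JV624 and 0.171 in JV6314.

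The members and gene lists were chosen with earlier results of these data known. Named genes are the 9 members, 4 catenins, in each list the gene with the lowest p and the gene with the highest mean, the 3 nearest profiles of each member tested, and, chosen after their values were seen, Dsc2, Fat4 and Pcdhga7 and the single markers of other cell types. Intervals on counts cover counting error only.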

Additional observations from a re-analysis of the deposited data

Results flagged for a closer look

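In each of the 9 genes and both populations the highest and the lowest of the 4 CPM values were set against the others, and in 4 of the 17 groups of values with any spread 1 library lay far from the other three by Dixon's criterion. Chance gives about 1 in 20 groups of normally spread values. For Cdh17 and Pcdh12 the other 3 values were all 0, so any read in the remaining library meets the criterion, and that rate does not apply to them.

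Cdh17 was read at 1.776 CPM (16 counts) in the LLRC library of JV6314 and at 0 in the other 3 LLRC libraries. Cdh13 stood at 9.817 CPM in the LLRC library of JV621 and at 0.441 to 1.16 CPM in the other LLRC libraries. This is the library with 120 Xist counts, and it also had the highest summed level of endothelial markers among the LLRC libraries, 69.7 CPM. Pcdh12 had its only LLRC read, 0.1471 CPM, in JV624, which is a difference of 1 count. Pcdh17 stood at 109.8 CPM (526 counts) in the non-LRC library of JV621 and at 1.18 to 4.26 CPM in the other non-LRC libraries. That library also had the highest Cdh5 (99.2 CPM), the highest summed endothelial markers (948 CPM) and the fewest genes detected (14234) of the non-LRC libraries.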

How the results depend on the processing

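Under the 23 alternatives the log2 fold changes of Cdh1 (0.08 to 0.58), Cdh2 (0.30 to 1.40), Cdh5 (-3.69 to -2.47) and Cdh13 (-7.39 to -4.82) kept their sign, as did that of Pcdh17 (-5.76 to -0.33) under the 22 that gave it a value. Adjusted p ran from 0.0045 to 0.9999 for Cdh5 and from 5.5e-07 to 0.70 for Cdh13. The number of members called was 0 by the quasi-likelihood test, 2 by DESeq2, 3 by the edgeR exact test without a filter and 1 with the newer dispersion. The number of all genes called was 0, against 221, 127 and 72 in those tests, 11 without a filter and 0 to 6 with 1 library left out (6 without the non-LRC library of JV602). DESeq2 and the exact test each called 1 gene of the family and partner lists, Ptprb. For Cdh6 the sign turned with unscaled library sizes (-0.031), with thinned counts (-0.053), with 1 library left out (range -0.069 to 0.245) and without both libraries of JV602 (-0.154) or JV621 (-0.008). For Pcdh1 it turned with limma (1.734), with 1 library left out (range -1.112 to 0.87), without both libraries of JV621 (1.101) and with the replicate block (0.048). The cause of these shifts was not tested. The paired fit with the replicate block called 0 members and 0 genes and changed no call at the adjusted threshold, and it moved the median log2 fold change of all genes tested from -0.02 to 0.14, as limma did to 0.10. List medians moved as well: clustered protocadherins from 1.05 to 2.31 (block), 1.54 (limma) and 0.61 (thinned), desmosomal and large cadherins from 0.27 to 0.71 and 0.53 (block and limma), processing and turnover from -0.34 to -0.15 and -0.11, catenins from -0.12 to 0.08 and 0.18, Pcdh7 from -2.98 to -1.97 and 0.03, hepatocyte markers from -1.28 to -0.84 and -1.25, stellate cell markers from -2.15 to -1.47 and -1.28, and mesothelial markers from -1.31 to -0.16 and -0.56. Depth limits Pcdh1, Pcdh12 and Cdh17, whose largest counts were 41, 45 and 16. Pcdh12 without a filter had an adjusted p of 0.185 in the quasi-likelihood test and 0.0061 in the edgeR exact test.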
